A study of Glycine max with 12 samples.

Results

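The 4 *APETALA1* (*AP1*) copies of soybean, *AP1a* (Glyma.16G091300), *AP1b* (Glyma.08G269800), *AP1c* (Glyma.01G064200) and *AP1d* (Glyma.02G121600), were followed in the RNA-seq libraries of flower buds. They were chosen by identifier, and all 4 were found among the 53808 genes of the count table. The libraries form 4 groups of 3. They came from *GmMYB21a-OE2*, a line that overexpresses the MYB transcription factor gene *GmMYB21a*, under heat (HT, set to 40 °C by day and 34 °C by night), from its recipient TL1 (Tianlong No. 1, a restorer line for cytoplasmic male sterility) at HT, and from *GmMYB21a-OE2* and TL1 at normal temperature (NT, set to 28 °C by day and 22 °C by night). *GmMYB21a-OE2* is 1 transformed line, and the overexpression construct was carried by the vector pTF101.1. The buds came from several heights on the plants, and the study names 3 independent biological replicates. The treatment entry of all 12 libraries reads high temperature, and the groups were taken from the library titles, which place 6 libraries at HT and 6 at NT.

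*AP1* encodes a MADS-domain transcription factor. In *Arabidopsis* it acts early in the floral meristem, where it is switched on by LEAFY and by the florigen FT with its partner FD and helps to turn a shoot meristem into a flower. Later it is needed for the outer whorls, as a class A gene of sepal and petal identity. Soybean is an ancient polyploid and holds several *AP1* copies, so a change of one copy can be set against the others in the same buds. In a bulk library, fewer cells of a type and less RNA per cell cannot be told apart, and the stages of the buds were not measured in these files.

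Total counts lay between 32058303 and 39654590 per library. The overexpression label was checked first. Glyma.19G006500, taken here as *GmMYB21a*, is annotated as a Myb-related protein in the study's tables, and the pairing with the name is not stated in the files. At HT its level was 10.3 to 11.5 CPM in *GmMYB21a-OE2*, against 0.810 to 1.12 CPM in TL1, and at NT 38.4 to 41.5 CPM in *GmMYB21a-OE2*, against 5.32 to 6.39 CPM in TL1 (3 libraries each). CPM are counts scaled to the normalized library size, with all 12 libraries normalized together. Comparisons of 2 groups were scaled on their own 6 libraries, so their fold changes can differ from the ratio of these CPM. Replicate 3 of *GmMYB21a-OE2* at HT stood apart from the other libraries of its group. The chi-square per degree of freedom between its counts and those of the other replicates was 11.7 and 14.8, against 2.71 to 5.09 for all other pairs of replicates. The heat and line changes of each copy are given with and without it. No library pair of a group was as alike as sampling noise alone would make it.

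All 4 copies were read in every library, with 560 to 2208 counts per copy and library. None of them was near 0 in any of these flower bud libraries. The names *AP1a* to *AP1d* came with the list of members. The RefSeq gene table of assembly Glycine_max_v4.0 holds 0 Glyma identifiers, and of its 3 genes with *AP1* as symbol or synonym, 1 is on chromosome 16 like *AP1a*. Another, on chromosome 6, has the symbol *AP1A* with the synonym *FULa* and is not on the chromosome of any of the 4 copies. Transcript lengths could not be matched, so levels are compared between groups for each copy and not between copies.

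Heat moved the copies in different directions. In both lines *AP1a* was lower at HT and *AP1d* was higher, *AP1b* was called lower in *GmMYB21a-OE2* and not called in TL1, and *AP1c* was called higher in TL1 and not called in *GmMYB21a-OE2*. The tests of whether these effects differ between the lines are given further on.

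*AP1a* had 40.002, 36.7 and 31.5 CPM at HT in *GmMYB21a-OE2* (replicates 1 to 3), against 61.7, 56.0 and 54.7 CPM at NT. In TL1 it had 45.5, 44.1 and 43.6 CPM at HT, against 57.2, 51.9 and 59.7 CPM at NT. In both lines every HT library lay below every NT library. The means were 36.1 ± 4.26 CPM at HT and 57.5 ± 3.71 CPM at NT in *GmMYB21a-OE2*, and 44.4 ± 0.951 CPM at HT and 56.2 ± 3.99 CPM at NT in TL1 (mean ± SD of 3 libraries). The log2 fold change of HT over NT was -0.67 in *GmMYB21a-OE2* (SE 0.093, adjusted p = 2.32e-05 by the quasi-likelihood test of edgeR), a change of -37.1% with a 95% interval of -45.2% to -27.8%. Without replicate 3 at HT it was -0.58 (adjusted p = 4.38e-07 in edgeR, with a range of 2.78e-10 to 0.000272 over all alternatives). In TL1 the log2 fold change was -0.33 (SE 0.056, edgeR adjusted p = 6.42e-06), a change of -20.6% with an interval of -26.7% to -14.0%.

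*AP1d* moved the other way. It had 32.1, 33.6 and 31.98 CPM at HT in *GmMYB21a-OE2*, against 19.3, 20.9 and 20.7 CPM at NT. In TL1 it had 36.1, 38.8 and 37.5 CPM at HT, against 20.8, 22.3 and 21.3 CPM at NT. The HT and NT libraries of *AP1d* were far apart in both lines and the replicates were close to each other, with means of 32.6 ± 0.929 and 20.3 ± 0.892 CPM at HT and NT in *GmMYB21a-OE2* and of 37.5 ± 1.37 and 21.5 ± 0.756 CPM in TL1 (mean ± SD of 3 libraries). The log2 fold change was 0.69 in *GmMYB21a-OE2* (SE 0.077, edgeR adjusted p = 3.12e-06), a change of 60.8% with an interval of 43.4% to 80.4%. Without replicate 3 at HT it was 0.70 (adjusted p = 9.25e-08 in edgeR, with a range of 8.30e-12 to 5.40e-05 over all alternatives). In TL1 it was 0.81 (SE 0.065, edgeR adjusted p = 4.74e-12), a change of 75.5% with an interval of 60.1% to 92.4%.

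*AP1b*, the copy with the fewest reads at HT, had 15.6, 16.8 and 14.3 CPM at HT in *GmMYB21a-OE2*, against 23.0, 20.3 and 20.4 CPM at NT, and the temperatures did not overlap. In TL1 it had 19.2, 18.5 and 20.4 CPM at HT, against 16.5, 20.2 and 21.7 CPM at NT, and the HT libraries lay inside the range of the NT libraries. The log2 fold change was -0.44 in *GmMYB21a-OE2* (SE 0.093, edgeR adjusted p = 0.000820), a change of -26.5% with an interval of -36.1% to -15.5%. It was -0.39 without replicate 3 at HT (adjusted p = 0.000866 in edgeR, with a range of 0.000152 to 0.00653 over all alternatives). In TL1 it was -0.00066 (SE 0.086, edgeR adjusted p = 0.995), with an interval of -11.5% to 12.9%, so changes within that interval were not excluded.

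*AP1c* had 49.6, 45.3 and 43.6 CPM at HT in *GmMYB21a-OE2*, against 47.4, 41.5 and 39.5 CPM at NT, with overlapping ranges. In TL1 it had 49.8, 54.8 and 52.1 CPM at HT, against 44.1, 41.3 and 47.0 CPM at NT, and all HT libraries lay above all NT libraries. The log2 fold change in *GmMYB21a-OE2* was 0.11 (SE 0.087, edgeR adjusted p = 0.267), with an interval of -5.02% to 23.0%. It was 0.15 without replicate 3 at HT (adjusted p = 0.104 in edgeR, with a range of 0.0883 to 0.655 over all alternatives). In TL1 it was 0.25 (SE 0.058, edgeR adjusted p = 0.000322), a change of 19.1% with an interval of 9.73% to 29.3%.

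**Figure D1:**
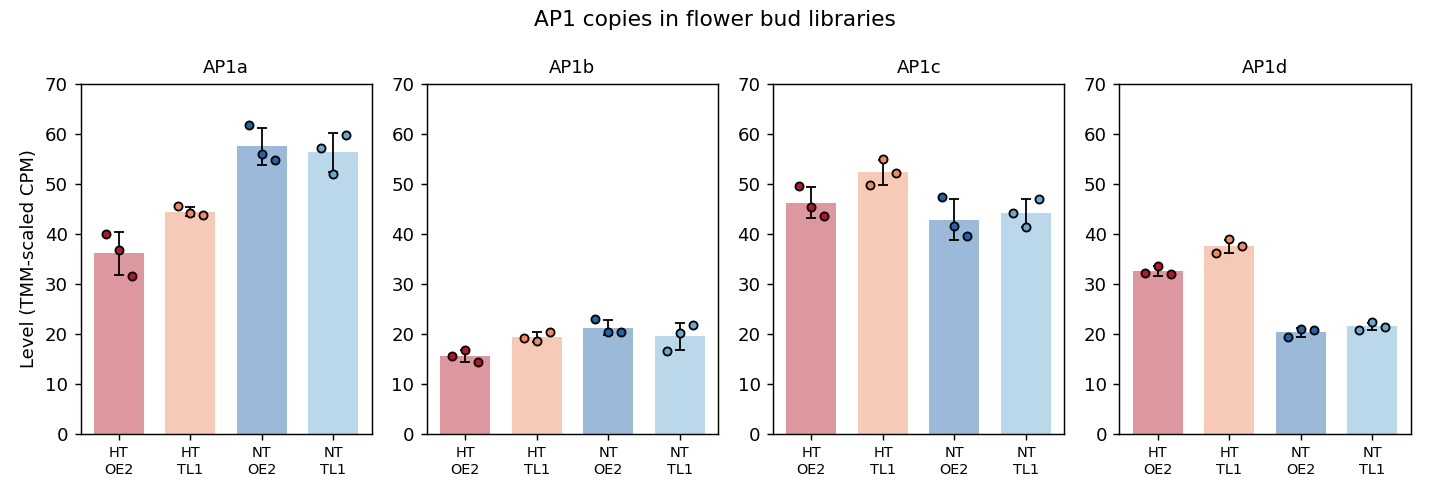
Level of each *AP1* copy in TMM-scaled CPM (y axis, from 0) in the 3 libraries of each group (x axis). Points are libraries, bars are group means and error bars are SD (n = 3). *AP1a* is lower and *AP1d* is higher at HT than at NT in both lines, while *AP1b* at HT in TL1 (18.5 to 20.4 CPM) lies within its NT range.

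These changes have to be read against a transcriptome in which most genes responded to heat. In *GmMYB21a-OE2*, 1 copy was called higher and 2 were called lower of the 4 tested (adjusted p-value below 0.05), where 33.6% of all 41717 genes tested were higher and 33.5% were lower. In TL1, 2 copies were called higher and 1 lower, where 35.5% of 41422 genes were higher and 35.7% were lower. None of the copies reached an absolute log2 fold change of 1 in either line, which with the same adjusted p-value 24.9% of all genes did in *GmMYB21a-OE2* and 23.3% in TL1. The median absolute log2 fold change of the 4 copies was 0.56 in *GmMYB21a-OE2* and 0.29 in TL1, against 0.56 and 0.52 over all genes tested. For *AP1d*, 41.2% of genes in *GmMYB21a-OE2* and 31.5% in TL1 had a larger absolute change, and for *AP1a* 42.2% and 66.4% did. The copies differed from each other in direction, with *AP1a* below 0 and *AP1d* above 0 in both lines.

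**Figure D2:**
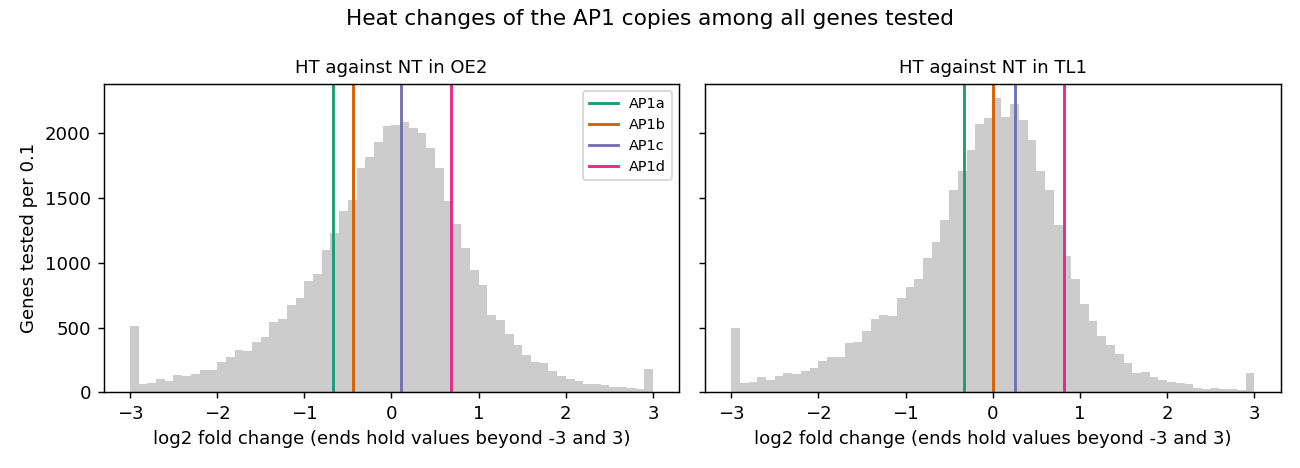
Number of genes tested (y axis, in steps of 0.1) by log2 fold change of HT over NT (x axis) in *GmMYB21a-OE2* and in TL1, with the 4 *AP1* copies as vertical lines. *AP1d* lies at 0.69 and 0.81 and *AP1a* at -0.67 and -0.33, all within the body of the distribution.

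Whether heat changed the copies by unequal amounts was tested on the ratio of the counts of 2 copies within each library. This ratio does not depend on library size or on normalization. A changed ratio does not by itself show that 2 copies moved in opposite directions. The 6 ratios were compared between HT and NT by an exact permutation test within each line (two-sided, 400 arrangements, smallest possible p = 0.005), with Benjamini-Hochberg adjustment over the 6. All 6 ratios differed between the temperatures, 5 of them with an adjusted p of 0.006 and *AP1b* over *AP1c* with 0.015. The 6 ratios are built from the same 4 copies, so they are not 6 independent results. For these 5 the unadjusted p of the permutation test was the smallest possible, so their equal values do not rank them. The ratio of *AP1a* to *AP1d* moved most. Its log2 value was 0.32, 0.13 and -0.02 at HT in *GmMYB21a-OE2* and 0.33, 0.18 and 0.22 at HT in TL1, against 1.68, 1.42 and 1.40 at NT in *GmMYB21a-OE2* and 1.46, 1.22 and 1.49 at NT in TL1. The mean difference of -1.25 on the log2 scale is a ratio at HT of 0.420 times that at NT (n = 3 libraries in each of 4 groups, exact permutation p = 0.005, adjusted p = 0.006). It was -1.36 in *GmMYB21a-OE2* and -1.14 in TL1, and the mean over the lines ranged over -1.29 to -1.21 with each library left out. Without replicate 3 of *GmMYB21a-OE2* at HT it was -1.21, and all 6 ratios still differed, with adjusted p of 0.006 for 5 of them and 0.015 for *AP1b* over *AP1c* by the exact permutation test. The order in which the copies shifted, from the most lowered to the most raised, was *AP1a*, *AP1b*, *AP1c* and *AP1d*. Averaged over the lines, every neighbouring pair in this order differed (the same exact permutation tests). The log2 differences were -0.28 for *AP1a* over *AP1b*, -0.40 for *AP1b* over *AP1c* and -0.56 for *AP1c* over *AP1d*. In TL1 alone they were -0.34, -0.25 and -0.56, and in *GmMYB21a-OE2* -0.23, -0.56 and -0.57. For *AP1b* over *AP1c* in TL1, the HT libraries (-1.57 to -1.35) overlapped the NT libraries (-1.41 to -1.03).

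**Figure D3:**
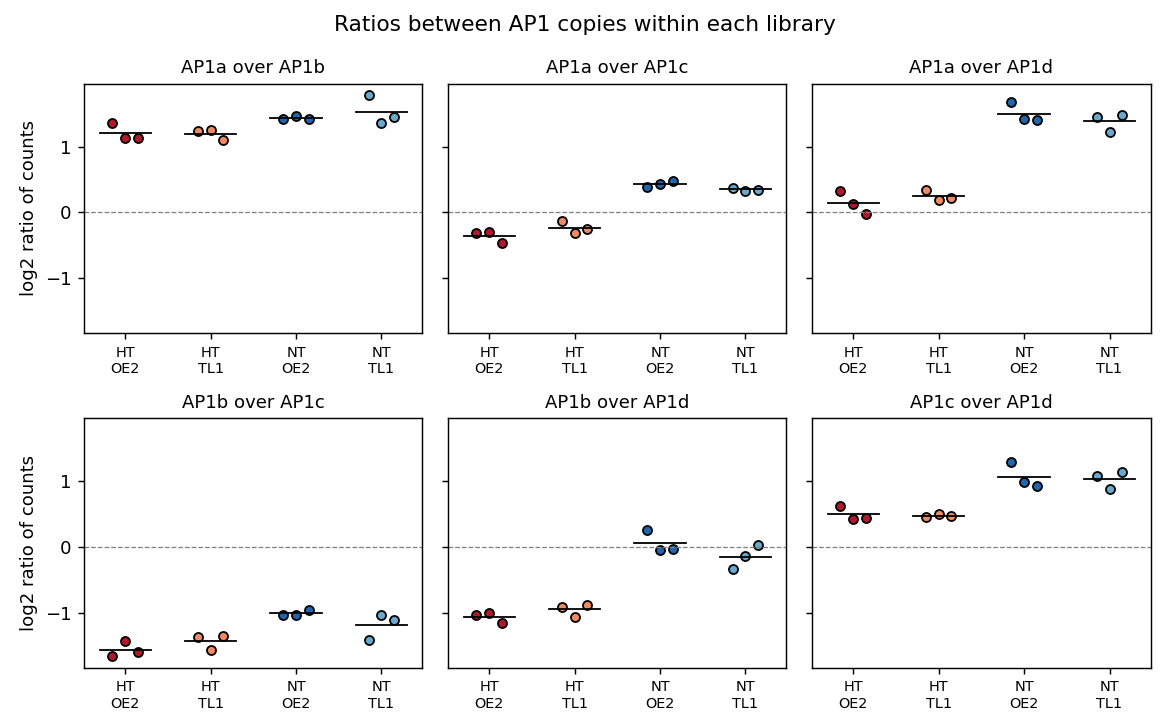
Log2 ratio of the counts of 2 *AP1* copies (y axis) within each library, by group (x axis), for the 6 pairs of copies. Points are libraries and lines are means of 3. The *AP1a* over *AP1d* ratio is between -0.02 and 0.33 in the 6 HT libraries and between 1.22 and 1.68 in the 6 NT libraries.

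As a share of the reads on all 4 copies, *AP1a* took 27.6 ± 1.59% at HT in *GmMYB21a-OE2*, against 40.5 ± 0.194% at NT, and 28.9 ± 1.08% at HT in TL1, against 39.8 ± 1.51% at NT (mean ± SD of 3 libraries). *AP1d* took 25.0 ± 1.52% at HT against 14.4 ± 1.43% at NT in *GmMYB21a-OE2*, and 24.4 ± 0.441% at HT against 15.2 ± 1.13% at NT in TL1. *AP1c* took 35.4 ± 1.04% and 30.1 ± 1.07% at HT and NT in *GmMYB21a-OE2*, and 34.03 ± 1.01% and 31.2 ± 0.685% in TL1. *AP1b* held the smallest share at HT, with 11.9 ± 0.660% in *GmMYB21a-OE2* and 12.6 ± 0.728% in TL1, against 14.96 ± 0.296% and 13.8 ± 1.61% at NT in these lines. At NT *AP1a* had the largest mean share of the reads, and at HT *AP1c* had it. Without replicate 3 at HT the shares in *GmMYB21a-OE2* were 28.4% for *AP1a*, 12.01% for *AP1b*, 35.2% for *AP1c* and 24.4% for *AP1d*. These are shares of reads, which also depend on the length of each transcript.

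The sum of the 4 copies had a smaller heat change than *AP1a* or *AP1d* in either line. It was 137, 132 and 121 CPM at HT in *GmMYB21a-OE2*, against 151, 139 and 135 CPM at NT. In TL1 it was 151, 156 and 154 CPM at HT, against 139, 136 and 150 CPM at NT. The temperatures overlapped in *GmMYB21a-OE2* and lay next to each other in TL1. The summed log2 fold change was -0.12 in *GmMYB21a-OE2* (SE 0.077, edgeR adjusted p = 0.192, interval -17.9% to 3.40%), and -0.07 without replicate 3 at HT. In TL1 it was 0.13 (SE 0.045, edgeR adjusted p = 0.0135, interval 2.44% to 16.4%). The call in TL1 was lost in 3 of 6 fits on 5 libraries each, without replicate 2 at HT (adjusted p = 0.0565), replicate 1 at NT (0.0769) or replicate 2 at NT (0.108), all in edgeR, and its adjusted p ranged over 0.00445 to 0.108 among the alternatives. The sum does not depend on how the counting divided reads among the 4 copies. It can still depend on shared reads that were left uncounted or assigned to other genes.

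The lines were then compared within each temperature. At HT all 4 copies had lower values in *GmMYB21a-OE2* than in TL1, and none was called. In CPM scaled over all 12 libraries together, the groups did not overlap for any of the 4. Over all genes tested, 19.5% were lower in *GmMYB21a-OE2* without overlap, and 11.1% of 41260 genes were called in either direction. For *AP1c* the nearest libraries of the lines were 49.6 and 49.8 CPM. The fold changes below were scaled on the HT libraries alone. That of *AP1c* was -0.13 on this scale and -0.18 with all 12 libraries in one fit (log2, edgeR). Whether *AP1c* also separates when only the HT libraries are scaled together was not tested. The 4 copies were measured in the same libraries and are not independent of each other. The log2 fold change was -0.25 for *AP1a* (SE 0.087, adjusted p = 0.0772), -0.27 for *AP1b* (0.092, adjusted p = 0.0778), -0.13 for *AP1c* (0.075, adjusted p = 0.289) and -0.16 for *AP1d* (0.071, adjusted p = 0.175, all in edgeR's quasi-likelihood test). The intervals allowed differences of -26.3% to -4.61% for *AP1a*, of -27.6% to -4.85% for *AP1b*, of -18.5% to 2.01% for *AP1c* and of -19.3% to -0.416% for *AP1d*. The unadjusted p was below 0.05 for 3 copies, at 0.0109, 0.0110 and 0.0426 for *AP1a*, *AP1b* and *AP1d* in edgeR.

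The calls of the line comparison at HT depended on which libraries entered the fit and were scaled together. With all 12 libraries in one fit, 3 copies were called lower in *GmMYB21a-OE2*, *AP1a* (adjusted p = 0.0123), *AP1b* (0.0270) and *AP1d* (0.0340, edgeR). The sum of the copies was also called lower in that fit, at -0.24 (edgeR adjusted p = 0.0119). With DESeq2 none of the 4 was called. Without replicate 3 of *GmMYB21a-OE2* the log2 fold changes were smaller, at -0.16, -0.21, -0.09 and -0.14 for *AP1a* to *AP1d*, and without replicate 1 of *GmMYB21a-OE2* *AP1a* was at -0.34 and called (adjusted p = 0.0206 in edgeR). Over all alternatives the adjusted p ranged over 0.0123 to 0.199 for *AP1a*, 0.0270 to 0.239 for *AP1b* and 0.0340 to 0.420 for *AP1d*, by edgeR or DESeq2. The sum of the copies at HT was 130 ± 8.09 CPM in *GmMYB21a-OE2*, against 154 ± 2.83 CPM in TL1 (mean ± SD of 3 libraries), a log2 fold change of -0.19 (SE 0.070, edgeR adjusted p = 0.0991). Without replicate 3 of *GmMYB21a-OE2* it was -0.14, and the adjusted p ranged over 0.0119 to 0.289 among the alternatives.

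At NT no copy was called, where 10.8% of 41292 genes tested were, and the lines overlapped for each copy. The log2 fold change of *GmMYB21a-OE2* over TL1 was 0.03 for *AP1a*, 0.12 for *AP1b*, -0.05 for *AP1c* and -0.08 for *AP1d*, with adjusted p-values between 0.437 and 0.830 in edgeR. The smallest unadjusted p among the 4 was 0.177, so none was below 0.05 by edgeR, and DESeq2 also called none. The sum differed by 0.0026 on the log2 scale (SE 0.051, edgeR adjusted p = 0.984, interval -6.94% to 7.84%). The ratios between copies were also compared between the lines within each temperature. Of the 6 ratios none was called, with adjusted p = 0.960 for each in the exact permutation test and differences averaged over the temperatures between -0.04 and 0.05 on the log2 scale. For 5 of the 6 ratios the differences at HT and at NT had opposite signs and partly cancelled in this average. *AP1b* over *AP1d* differed by -0.11 at HT and by 0.21 at NT. *AP1b* over *AP1c* differed by -0.14 at HT and by 0.18 at NT, and *AP1a* over *AP1c* by -0.13 and 0.08. The ratios were not tested between the lines at each temperature alone.

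**Figure D4:**
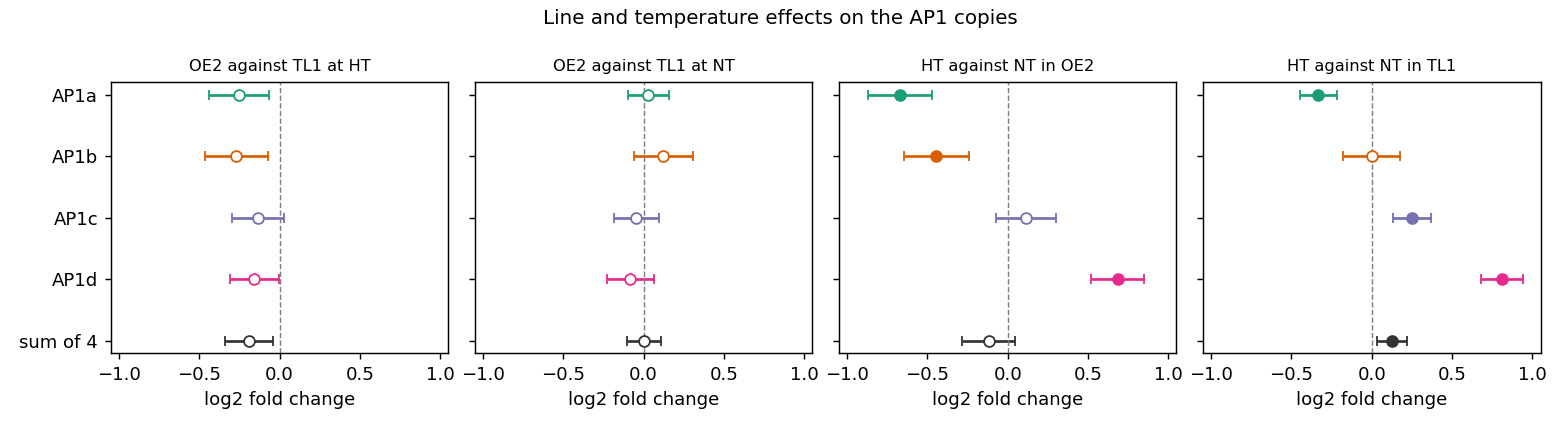
Log2 fold change (x axis) of each *AP1* copy and of their sum (y axis) in 4 comparisons, with 95% intervals from edgeR's quasi-likelihood fit, each on its own 6 libraries. Filled points have an adjusted p-value below 0.05. They occur in the heat comparisons, with *AP1d* at 0.69 and 0.81, and not in the line comparisons.

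The heat effect in *GmMYB21a-OE2* minus that in TL1 was negative for all 4 copies. On the log2 scale this interaction was -0.33 for *AP1a* (SE 0.11, adjusted p = 0.0576), -0.44 for *AP1b* (0.14, adjusted p = 0.0375), -0.14 for *AP1c* (0.11, adjusted p = 0.461) and -0.12 for *AP1d* (0.094, adjusted p = 0.452, edgeR over all 12 libraries). Thus 1 of the 4 copies, *AP1b*, was called, where 6.91% of 42839 genes had a lower effect by the same rule. The call of *AP1b* was close to the threshold. In 9 of 12 fits on 11 libraries each it was lost, and without replicate 1 of TL1 at NT, its lowest NT library, the interaction was -0.30 (adjusted p = 0.165 in edgeR). The adjusted p ranged over 0.0230 to 0.165 among the alternatives, by edgeR or DESeq2. For *AP1c*, which passed the test for heat in TL1 and not in *GmMYB21a-OE2*, the lines were not shown to differ. For the sum the interaction was -0.24 (SE 0.088, edgeR adjusted p = 0.0809). Without replicate 3 of *GmMYB21a-OE2* at HT the interaction was -0.24 for *AP1a*, -0.38 for *AP1b* (edgeR adjusted p = 0.0493), -0.10 for *AP1c*, -0.11 for *AP1d* and -0.19 for the sum.

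A gene annotated as pollen-specific extensin-like in the study's tables, Glyma.05G121700, was used as a marker of pollen and was lower with heat in both lines and lower in *GmMYB21a-OE2* at HT. It had 0.307 to 0.644 CPM at HT and 2.87 to 3.73 CPM at NT in *GmMYB21a-OE2*, and 1.09 to 1.40 CPM at HT and 3.59 to 4.11 CPM at NT in TL1 (3 libraries each). It stands in the study's tables because of its change at HT in these libraries, so its line difference at HT is no separate evidence. Its counts at HT were low, at 12 to 50 per library. The part of pollen amount or bud stage in the *AP1* values was not tested.

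Across the 12 libraries, *AP1a* and *AP1b* had a Pearson r of 0.78 on log2(CPM + 0.5), *AP1c* and *AP1d* one of 0.70, and *AP1a* and *AP1d* one of -0.80. After the group means were taken out, the r of *AP1a* with *AP1c* was 0.79, while that of *AP1a* with *AP1d* was -0.41. The points share library depth and group structure, and these values are descriptions. The gene with the pattern most like each copy, among 36228 other genes with a mean of at least 1 CPM, was Glyma.07G191600 for *AP1a* (r = 0.987), Glyma.10G265300 for *AP1b* (r = 0.962), Glyma.10G221400 for *AP1c* (r = 0.948) and Glyma.05G062400 for *AP1d* (r = 0.997). The next most alike genes had r of 0.986, 0.934, 0.932 and 0.996 with *AP1a* to *AP1d*. None of these identifiers is named in the tables at hand. High values were common for the copies that followed temperature in both lines. An r above 0.9 was found for 2947 genes (8.13%) with *AP1a* and for 6418 genes (17.7%) with *AP1d*, against 7 genes with *AP1b* and 19 genes with *AP1c*.

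Other genes of the flowering pathway were described from a list of 10 identifiers, compiled from general knowledge for the florigen, FD, SOC1, TFL1, FUL and E1 groups of soybean. The files do not pair these identifiers with names, so they are given as a group. All 10 were in the table and 7 passed the filter on low counts in the heat comparisons, while the other 3 had mean counts below 10. The only entries listed for the TFL1 and E1 groups were among these 3, so the counts of calls below do not cover these groups. Of the 7, 4 were called higher and 0 lower at HT in *GmMYB21a-OE2*, and likewise 4 and 0 in TL1, with the same 4 genes in both lines. Over all genes tested, 33.6% were higher and 33.5% lower in *GmMYB21a-OE2*, and 35.5% higher and 35.7% lower in TL1. The median log2 fold change of the 7 was 0.37 in *GmMYB21a-OE2* and 0.49 in TL1, against 0.01 and 0.00 over all genes tested. One of the 4, Glyma.09G266200, had 8.60 ± 1.47 CPM at HT and 3.604 ± 0.440 CPM at NT in *GmMYB21a-OE2*, and 10.7 ± 0.593 CPM at HT and 4.83 ± 0.0389 CPM at NT in TL1 (mean ± SD of 3 libraries). Its log2 fold change was 1.26 in *GmMYB21a-OE2* and 1.16 in TL1 (adjusted p = 9.60e-06 and 3.21e-10 in edgeR). In the line comparisons 0 of the 7 tested at HT and 0 of the 6 tested at NT were called by edgeR, with 0 of them at an unadjusted p below 0.05 at HT and 3 at NT. Over all genes tested, 11.1% were called at HT and 10.8% at NT, so a list of this size may hold no called gene at these shares.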

How the data were processed

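Flower buds were measured by RNA-seq in 12 libraries, 3 in each of 4 groups of line and temperature. The authors deposited whole-number counts of reads per gene for all libraries, not normalized. StringTie 2.1.3b is named in the submitters' processing notes, and the study says that reads were trimmed and filtered. The aligner, the genome build, the counting program and the use of strand are not given in the sources used here, so close copies, overlapping and antisense genes can share reads. The table had 0 columns that were left unused and 0 rows without a gene.

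The deposited counts were scaled to CPM by TMM over all 12 libraries together (edgeR 4.0.16 under R 4.3.3). Each fit had its own TMM scaling over the libraries it used. For every comparison of 2 groups a separate fit was made to the 6 libraries concerned, and for the interaction to all 12, with glmQLFit and glmQLFTest after filterByExpr at its defaults, with Benjamini-Hochberg adjustment over all genes tested and a threshold of 0.05. All 4 copies passed the filter in every comparison. Ratios between copies were taken on counts with 0.5 added. Common biological coefficients of variation lay between 0.0620 and 0.0963. Pairs of libraries of one group had a chi-square per degree of freedom of at least 2.71, above the sampling noise, and none was counted as 1 sample. The copies had 560 to 2208 counts per library, and total counts were 32058303 to 39654590.

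The members, the lists and the tests were chosen with earlier results of these data known. The genes named are the members, the gene most alike to each by Pearson r of log2(CPM + 0.5), *GmMYB21a*, a pollen marker and genes of a flowering list whose identifiers came from general knowledge. The rule asked for 2 alike genes per copy, of which the second are given by their r alone. No sequences or transcript lengths were matched to the identifiers. Alternatives were RLE size factors, DESeq2 1.42.0, a joint fit of all 12 libraries, omission of the low-count filter, the replicate number as a block, a fold threshold, 1 added in the ratios, and each library left out in turn. The fits were tested on simulated counts with 200 genes changed 4-fold. For the line comparison at HT, 200 of these were called with 9 false calls among 41731 genes, and for the interaction 200 with 6 among 42262 genes. Recovery of effects as small as those of the *AP1* copies was not tested. Permutation tests went through all arrangements with numpy 2.4.6, plots used matplotlib 3.10.9 and tables pandas 2.3.3, under Python 3.11.15.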

Additional observations from a re-analysis of the deposited data

Results flagged for a closer look

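The heat effect on *AP1b* passed the interaction test between the lines, close to the threshold, where 6.91% of all genes tested had a lower effect by the same rule. It was -0.44 on the log2 scale in *GmMYB21a-OE2* minus TL1 (SE 0.14, edgeR adjusted p = 0.0375, 95% interval -0.72 to -0.16). All 3 HT libraries of *GmMYB21a-OE2* lay below its NT libraries, while in TL1 the HT libraries lay within the NT range. That NT range was set at its lower end by replicate 1, at 16.5 CPM. Without this library the interaction was -0.30 (edgeR adjusted p = 0.165). The call was also lost in 8 other fits that left out a library, of 12 in all, with the replicate block (edgeR adjusted p = 0.0547) and without the filter on low counts (edgeR adjusted p = 0.0763), and it held with DESeq2 (adjusted p = 0.0256).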

How the results depend on the processing

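The heat calls of *AP1a* and *AP1d* in both lines, of *AP1b* in *GmMYB21a-OE2* and of *AP1c* in TL1 held under RLE size factors, DESeq2, no filter, all 12 libraries in one fit, the replicate block and each library left out, and were lost with a fold threshold. The 6 ratio differences between temperatures held with each library left out. With a threshold of 1 on the absolute log2 scale, 0 copies were called higher and 0 lower in either heat comparison, and 0 lower in the interaction. With all 12 libraries in one fit, the line difference at HT was -0.30 for *AP1a*, -0.31 for *AP1b*, -0.20 for *AP1d* and -0.24 for the sum, with 3 copies and the sum called lower, and the heat change of the sum in TL1 was 0.12 and not called. In the interaction, DESeq2 gave -0.33 for *AP1a* and 2 copies called lower, and without a filter *AP1b* was at -0.40 with 0 copies called. The cause was not tested for any of these. The line differences at HT rest on groups of 3 libraries, of which replicate 3 of *GmMYB21a-OE2* stood apart.

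With the replicate block, *AP1b* was at 0.0043 for heat in TL1, against -0.00066 without it, and at -0.44 in the interaction (edgeR adjusted p = 0.0547), where 0 copies were called, and no other call of a copy changed. The replicate numbers were not treated as pairs in the main fits. Same-numbered libraries had correlations of deviations between -0.28 and 0.22, and these values did not settle whether the numbers pair the libraries. Under the block the genes called at HT between the lines numbered 2673, against 4567 without it, and at NT 5398 against 4472. In TL1 29221 were called for heat, against 29476, in *GmMYB21a-OE2* 28511 against 27976, and in the interaction 4751 against 5317. The libraries that correlated best with their own number were 0 of 6 at HT, 4 of 6 at NT, 2 of 6 in TL1 and 4 of 6 in *GmMYB21a-OE2*.

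With each library left out in turn, the line difference at HT ranged over -0.34 to -0.16 for *AP1a* and -0.24 to -0.14 for the sum, with 0 to 1 copies called lower. Without replicate 1 of *GmMYB21a-OE2*, both *AP1a* and the sum were called. At NT it ranged over -0.026 to 0.074 for *AP1a*, -0.13 to 0.0091 for *AP1c* and -0.048 to 0.046 for the sum. The heat change in TL1 ranged over -0.11 to 0.075 for *AP1b* and 0.095 to 0.16 for the sum. The interaction ranged over -0.41 to -0.24 for *AP1a*, over -0.52 to -0.30 for *AP1b* and over -0.28 to -0.19 for the sum (*AP1a* and the sum were called without replicate 1 of *GmMYB21a-OE2* at HT), with 0 to 1 copies called. The line differences of the ratios ranged over -0.087 to 0.020 for *AP1a* over *AP1b*, -0.044 to 0.0021 for *AP1a* over *AP1c*, -0.040 to 0.045 for *AP1a* over *AP1d*, -0.038 to 0.057 for *AP1b* over *AP1c*, -0.00014 to 0.093 for *AP1b* over *AP1d* and -0.027 to 0.065 for *AP1c* over *AP1d*, none of them called.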
